A study of Homo sapiens with 6 samples.

Results

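The subject here is a set of 141 genes that were chosen because their level was higher in SKOV3 cells with silenced KLF5 than in control SKOV3 cells. SKOV3 cells are a long-established line from a human ovarian carcinoma. From 3 libraries of the KLF5-silenced cells (sh-KLF5) and 3 of the control cells (sh-NC), poly(A) RNA was sequenced. The sh-KLF5 cells carried the silencing sequence in a pLKO vector and were selected with puromycin, and the labels give the genotype of the control as WT. What vector the control cells carried, how many silencing sequences were used, and whether the 3 libraries of a group came from separate cultures, is not given in the sources used here. The p-values therefore measure the spread between these libraries, which may be technical.

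The deposited table gives a normalized count for each of 29185 genes in each library, that is, the reads counted on a gene divided by 1 scaling factor per library. A protein-coding gene was chosen when its mean over the sh-KLF5 libraries was at least 100 normalized counts and at least 2 times its sh-NC mean, and when every sh-KLF5 value lay above every sh-NC value. Large name families (genes whose names start with MMP, ADAM, COL, ZNF, SLC, KCN, KRT, CDH, PCDH, ITG, EPH, SEMA, CXCL, IL, HIST or IFI) and FAP, ACTA2, SNAI2 and ESRP1 were left out, which removed 17 of 158 genes, MMP3, KCNJ15 and CXCL1 among them. The remaining 141 genes are 1.48% of the 9495 protein-coding genes that had a sufficient sh-KLF5 mean and were of no omitted family. Separation of the groups by itself was common: in 1730 of the 9495 genes (18.2%) every sh-KLF5 library lay above every sh-NC library. Since the members were selected on the measured contrast between the groups, their ratios are given as a description and without a test. In the values below, 3 numbers joined by "and" stand for libraries 1, 2 and 3 of a group in that order, all values are normalized counts, and the ratio is the sh-KLF5 mean divided by the sh-NC mean. By the rule, the groups overlap in no member.

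KLF5 is a zinc-finger transcription factor that binds GC-rich and CACCC-type sequences in promoters and enhancers, and it can activate or repress its targets. In epithelia and carcinomas it is known for regulating proliferation, differentiation and survival. The silenced gene stood at 4371, 4425 and 4494 in sh-NC and at 1745, 1439.9 and 1436 in sh-KLF5, which is 34.8% of the control mean. This fall passed the test (log2 fold change -1.53, SE 0.12, limma adjusted p = 2.47e-07).

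Recovered depth was similar in all libraries, at 15852319 to 17543896 reads assigned to genes. The sh-KLF5 libraries differed more among themselves (chi-square per degree of freedom of their reads, 11.6 to 33.7) than the sh-NC libraries did (4.70 to 9.30), with sh-KLF5 library 1 in both of the largest values. Of 14 markers of ovarian carcinoma and SKOV3, 13 were in the deposited table and 11 had enough reads to be tested. The summed level of the 13 was 54609 to 66641 in sh-NC and 29248 to 39469 in sh-KLF5. KRT7 (means 32104 and 18751) and KRT8 (21816 and 9817) made up most of these sums. Over the 11 tested markers, the median log2 fold change was -0.64. KRT8 and MUC16 passed the test as lower in sh-KLF5. KRT7, KRT18, MSLN and CLDN4 were also lower in every sh-KLF5 library than in any sh-NC library and passed on adjusted p alone, with log2 fold changes of -0.78, -0.64, -0.71 and -0.85. ERBB2 stood at 1836 to 2207 in sh-NC and 1295 to 1799 in sh-KLF5, which do not overlap but did not pass (limma adjusted p = 0.124), and PAX8 at 330 to 390.1 and 249 to 400, which overlap. EPCAM, CD24 and KRT19 had ratios of 0.98, 0.91 and 1.87 and did not pass, and KRT19 had 17 reads or fewer in every library. FOLR1 and CLDN3 had too few reads to be tested, and WT1 of this list had no protein-coding row in the deposited table. Of 14 leukocyte and endothelial markers, only CD14 and PECAM1 were testable and neither passed. The sums over the 11 of these markers in the deposited table were 234 to 292 in sh-NC and 229 to 458 in sh-KLF5. PTPRC, LYZ and CDH5 had 3 reads or fewer in every library. Of 10 tested stromal fibroblast markers, FAP and ACTA2 were higher and 5 were lower. The sums over all 11 listed stromal markers were 1325 to 1909 in sh-NC and 707 to 1199 in sh-KLF5. In bulk RNA, a change in the number of expressing cells and a change in RNA per cell cannot be told apart.

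Sequences around the transcription start are shown for 6 members, from 250 bases before the start to 50 bases after it. CPA4 is shown because it had the largest ratio, CDKN1A because it had the highest level, CEMIP and PTX3 because they carry letters of the type that KLF factors bind, and SERPINB4 and SERPINB3 because they are neighbouring near-identical copies. Capitals mark the letters of 6 motifs searched on both strands, and positions count from 1 at the 5′ end. The GC box was searched as the letters GGGCGGG, the CACCC box as the letters GGGTGGG and the AP-1 site as the letters TGANTCA. The E-box was searched as the letters CACGTG, the TATA box as the letters TATAAA and the TEAD site as the letters GGAATG. The sequences are those of RefSeq on GRCh38.p14, printed 5′ to 3′ on the strand of the gene.
CPA4 (chr7:130292911-130293210, plus strand): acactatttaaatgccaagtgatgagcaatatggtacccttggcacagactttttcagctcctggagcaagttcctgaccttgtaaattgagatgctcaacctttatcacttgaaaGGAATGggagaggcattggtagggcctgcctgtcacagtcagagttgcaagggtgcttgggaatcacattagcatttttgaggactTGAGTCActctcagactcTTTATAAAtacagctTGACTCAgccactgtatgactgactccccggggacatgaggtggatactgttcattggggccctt
CDKN1A (chr6:36678464-36678763, plus strand): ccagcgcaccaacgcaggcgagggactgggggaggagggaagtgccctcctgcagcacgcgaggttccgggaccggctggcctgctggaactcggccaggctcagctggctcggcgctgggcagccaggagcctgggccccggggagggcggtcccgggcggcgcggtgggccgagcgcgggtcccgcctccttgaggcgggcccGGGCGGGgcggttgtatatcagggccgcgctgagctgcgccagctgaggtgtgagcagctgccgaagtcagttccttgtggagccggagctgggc
CEMIP (chr15:80779120-80779419, plus strand): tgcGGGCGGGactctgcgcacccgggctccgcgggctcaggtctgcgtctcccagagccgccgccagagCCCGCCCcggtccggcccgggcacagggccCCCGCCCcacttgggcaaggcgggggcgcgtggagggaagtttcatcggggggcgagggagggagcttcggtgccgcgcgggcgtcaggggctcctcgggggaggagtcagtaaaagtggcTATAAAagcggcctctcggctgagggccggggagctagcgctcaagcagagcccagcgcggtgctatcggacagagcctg
PTX3 (chr3:157436600-157436899, plus strand): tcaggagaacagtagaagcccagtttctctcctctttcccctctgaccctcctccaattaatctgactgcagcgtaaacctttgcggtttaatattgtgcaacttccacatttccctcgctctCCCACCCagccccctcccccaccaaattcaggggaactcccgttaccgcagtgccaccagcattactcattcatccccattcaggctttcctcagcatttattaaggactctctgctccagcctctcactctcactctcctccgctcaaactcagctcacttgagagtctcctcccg
SERPINB4 (chr18:63644207-63644506, minus strand): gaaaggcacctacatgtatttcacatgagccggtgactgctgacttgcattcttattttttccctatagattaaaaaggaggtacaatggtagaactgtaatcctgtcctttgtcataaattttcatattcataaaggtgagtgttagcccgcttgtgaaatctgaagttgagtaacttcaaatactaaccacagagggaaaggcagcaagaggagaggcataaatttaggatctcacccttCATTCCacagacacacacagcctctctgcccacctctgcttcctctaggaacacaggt
SERPINB3 (chr18:63661844-63662143, minus strand): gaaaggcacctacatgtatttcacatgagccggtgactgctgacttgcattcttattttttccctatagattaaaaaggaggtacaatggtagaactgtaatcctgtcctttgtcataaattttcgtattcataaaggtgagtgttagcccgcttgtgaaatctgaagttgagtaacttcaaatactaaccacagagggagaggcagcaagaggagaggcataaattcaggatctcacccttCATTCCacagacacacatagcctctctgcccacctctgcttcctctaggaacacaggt
In CPA4 the capitals are a TEAD-type match at position 117, AP-1 matches at 203 and 236, and a pair of overlapping TATA matches at 221 and 223. CDKN1A has a GC box at 206. CEMIP has GC boxes at 4, 70 and 100 and a TATA box at 221, and PTX3 has a CACCC box at 124 on the other strand. The SERPINB3 and SERPINB4 sequences were the same at 296 of 300 positions (98.7%) and both hold a TEAD-type match at 243 on the other strand. These letters are frequent: the GC box was found in 33.1% of 35116 RefSeq promoters of the same length, the CACCC box in 19.6%, the TEAD site in 14.03%, the TATA box in 11.5%, the AP-1 site in 7.71% and the E-box in 7.26%. A promoter was matched for only 103 of the 141 members (73.0%), fewer than 80%, so a comparison of motif shares or GC content between members and other genes is void and is not given. A match of letters is a description and not a binding site.

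The ratios of the 141 members ranged from 2.001 to 5.62 with a median of 2.43, against a median of 1.02 over the 9495 genes that could have been chosen. Most members were close to the threshold: 79 lay below 2.5, 30 between 2.5 and 3, 32 at 3 or more and 6 at 4 or more. The sh-NC mean was 31.3 to 1969 (median 180.5) and was under 100 in 40 members, whereas the sh-KLF5 mean was 105 to 5460 (median 462), with 42 members at 1000 or more. No member had fewer than 25 reads in any library. The lowest sh-KLF5 value exceeded the highest sh-NC value by 1.22 to 3.89 times, and 49 members had a gap of 2 times or more. Just inside the ratio threshold were DSEL (2.001), IRS1 (2.01) and IGFBP3 (2.01), and just outside were TMEM158, TRIB1 and ZMIZ1 (1.99 each). At the threshold for the mean, TOX2 (104.8), ELOVL2 (106.6) and LIPH (110.4) were inside and DUSP2 (95.0), CPQ (89.3) and CACNA1G (87.4) outside. Another 218 genes missed the set by their mean alone. The smallest separations inside were those of SULF2 (1.22), IGFBP7 (1.24) and PFKFB4 (1.26), and 3 genes failed by overlap alone (RELN, INSIG1 and U2AF1L5).

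**Figure D1:**
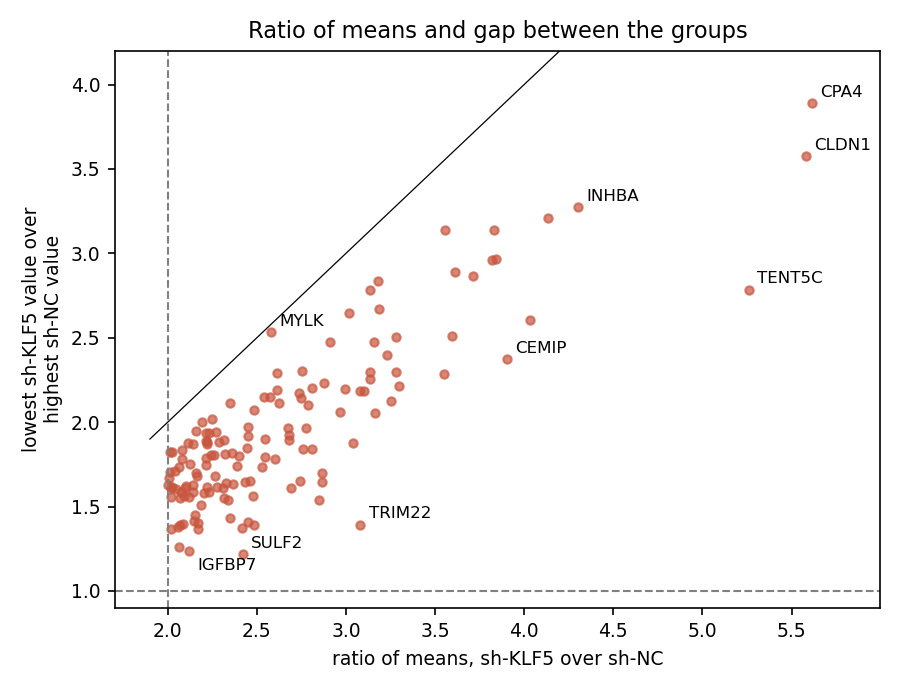
For each of the 141 members (points), the horizontal axis gives the ratio of the sh-KLF5 mean to the sh-NC mean and the vertical axis the lowest sh-KLF5 value divided by the highest sh-NC value. The diagonal is where both are equal, the dashed lines are the thresholds of the rule, and CPA4 (5.62 and 3.89) is farthest from both whereas SULF2 has the smallest gap (1.22).

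Per kilobase of exon, members were expressed at a modest level. Their median was 35.9 normalized counts per kb in sh-NC, against 145 over the genes that could have been chosen, and 82.8 against 149.8 in sh-KLF5. The low sh-NC level follows in part from the rule, which requires an sh-KLF5 mean of at least 2 times the sh-NC mean. Among the highest sh-KLF5 levels per kb were those of CDKN1A (1790), CEBPB (1618), IGFBP3 (866) and SERPINB3 (806), and the lowest those of DISP2 (8.98), GUCY1A2 (9.05) and FAT4 (9.68). The exon length of members (median 5281 bases) was near that of the other candidates (5376). The spread between libraries, as the coefficient of variation, had a median of 10.7% in sh-NC and 16.2% in sh-KLF5, against 7.22% and 12.4% over all 9495. Members and candidates were not matched for level (median sh-KLF5 mean 462 against 783), and the cause of the wider spread was not tested.

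The members were sorted by role into 13 groups, by knowledge of each gene after the members were known, to order the description. Proteases and protease inhibitors had the highest median ratio (3.12, 8 members) and signalling adaptors, kinases and GTPase regulators the lowest (2.11, 11 members). All 13 groups spanned overlapping ranges of ratio.

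**Figure D2:**
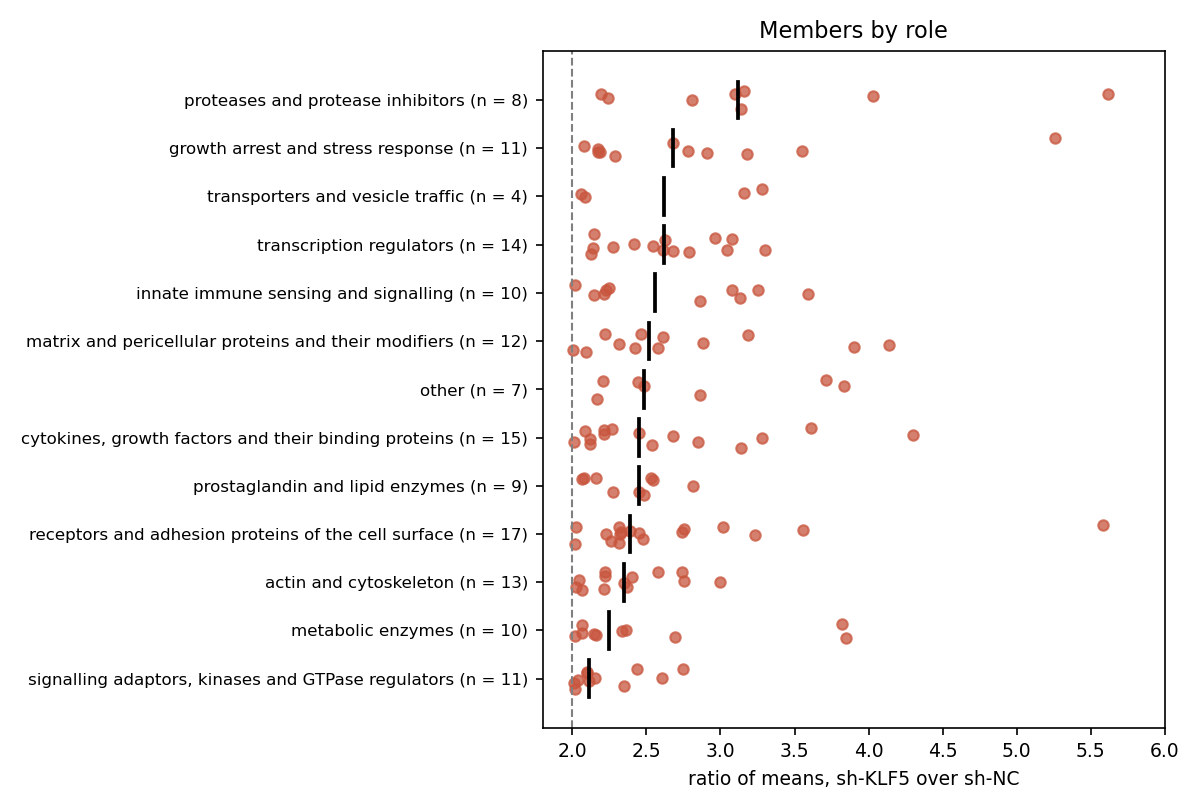
Each point is 1 of the 141 members, placed on the horizontal axis by its ratio of means (sh-KLF5 over sh-NC) and on the vertical axis by its role, with black bars for the median of each group and a dashed line at the threshold of 2. Group medians run from 2.11 to 3.12, and CPA4, CLDN1 and TENT5C are the 3 points above 5.

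Among the 8 proteases and protease inhibitors, CPA4, a secreted carboxypeptidase of the A/B family, stood at 263, 217 and 161 in sh-NC and 1025, 1021 and 1551 in sh-KLF5 (5.62-fold, means 214 ± 50.7 and 1199 ± 305, SD, n = 3). The highest CPA4 value was in sh-KLF5 library 3. SERPINE2, a secreted serpin which inhibits thrombin and urokinase, stood at 1469, 1546 and 1721 against 5150.2, 4365 and 3790.03 (2.81-fold), with library 1 highest and library 3 lowest. TFPI, the inhibitor of the tissue factor pathway of coagulation, stood at 947, 788 and 753 against 3338, 2329.7 and 2137 (3.14-fold) and shared that order. Tissue factor itself, F3, which is no member, had means of 1977 and 3074, below the ratio of 2. It passed on adjusted p alone (log2 fold change 0.63, limma adjusted p = 0.00286). PAPPA, a metalloproteinase that cleaves IGF-binding proteins, was at 413, 247 and 242 against 903, 933 and 962 (3.10-fold), nearly the same in all sh-KLF5 libraries. BACE2, an aspartyl protease of the membrane, was at 144, 132 and 135 against 304, 309 and 289 (2.19-fold) and was equally even.

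The squamous cell carcinoma antigens SERPINB3 and SERPINB4, inhibitors of intracellular and lysosomal proteases, need care because they are near-identical. SERPINB4 stood at 291, 224 and 228 against 870.4, 722 and 755 (3.16-fold) and SERPINB3 at 762, 608 and 548 against 1384, 1376 and 1537 (2.24-fold). Of all 50-base stretches of the transcripts of SERPINB3, 23.3% also occur in SERPINB4, and 20.1% of those of SERPINB4 occur in SERPINB3, so that reads could have been assigned to either gene. Each was highest in a different sh-KLF5 library, SERPINB4 in library 1 and SERPINB3 in library 3. The list of serpins and proteases outside the MMP and ADAM families had 20 tested genes, of which 4 are members, CPA4, SERPINE2 and SERPINB3 among them. In this and the following lists, the remaining genes could pass only where they missed the rule. They could miss it by a mean under 100, an overlap, a ratio under 2 or a name that was left out, as for FAP and ACTA2. Their number of rises is therefore limited by the choice of members. A test was passed at an adjusted p under 0.05 with a log2 fold change above 1 or below -1 (limma). Over all 15803 tested genes, 301 (1.9%) were higher and 533 (3.37%) lower in sh-KLF5 by that test. Of the other 16 genes of the list, HTRA3 (log2 fold change 1.01, limma adjusted p = 0.00194) and SERPINB7 (log2 fold change 2.19, limma adjusted p = 0.00207) rose and KLK10 and SERPINF1 fell, and the median log2 fold change of those 16 was 0.11, against -0.0023 over all tested genes.

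Of the 15 cytokines, growth factors and their binding proteins, INHBA had the largest ratio. INHBA encodes the beta A subunit of activins and inhibin A, and stood at 60.5, 69.96 and 57.3 against 274, 229 and 305 (4.30-fold). FST, whose product follistatin binds and neutralises activin, stood at 71.7, 61.1 and 67.9 against 192, 159 and 141 (2.45-fold). That ligand subunit and antagonist were both higher in all 3 sh-KLF5 libraries is required by the rule for every member. LTBP2, of the family of latent TGF-beta binding proteins, was at 607, 608 and 705 against 1701, 1659 and 1512 (2.54-fold), and VASN, a membrane protein that can trap TGF-beta, at 631, 513 and 677 against 1699, 1898 and 1281 (2.68-fold). INHBA, FST and LTBP2 are among the 4 members in a list of 22 tested TGF-beta target genes. Of the other 18 genes, none rose and NOG, an antagonist of BMP ligands, fell (log2 fold change -1.01, limma adjusted p = 0.0017). Their median log2 fold change was 0.42.

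LIF, a cytokine of the interleukin-6 family, stood at 328, 287 and 292 against 1149.7, 1178 and 948 (3.61-fold). CSF1, the growth factor of macrophages, was at 299, 320.2 and 312 against 621, 705 and 734 (2.21-fold). Both were above their controls in every library, as the rule requires, LIF by a gap of 2.89 times and CSF1 by 1.94 times. The list of secreted growth factors had 21 tested genes, 2 of them members (LIF and CSF1). Of the other 19, none rose and HGF (log2 fold change -4.82, limma adjusted p = 3.88e-08), PGF, FGF18 and GDF15 fell, with a median log2 fold change of 0.46. The chemokine CCL3L1 stood at 256, 223 and 278 against 774, 816 and 784 (3.14-fold), and CCL3 at 40.04, 40.4 and 47.7 against 73.4, 142 and 150.4 (2.85-fold). CCL3L1 was even between the sh-KLF5 libraries, whereas CCL3 was low in library 1. These chemokines are close copies and share 5.02% and 4.93% of their 50-base stretches, and 23.3% of the exon bases of CCL3L1 are overlapped on the opposite strand by the antisense gene AC243829.1, which stood at means of 24.0 and 17.9.

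Several members bear on insulin-like growth factor signalling. IGFBP3, the main carrier of these factors, stood at 2089, 1798 and 2018 against 4164, 3806 and 3902 (2.01-fold), at the edge of the rule. IGFBP7, a related secreted protein of low affinity for them, was at 185, 134 and 223 against 499, 374 and 276 (2.12-fold) and IRS1, the adaptor of the insulin and IGF receptors, at 402, 381 and 437 against 729.8, 923 and 799 (2.01-fold). The sh-KLF5 values of IGFBP3 were even, whereas IGFBP7 was lowest in library 3, close to its control values. STC2, a secreted inhibitor of PAPPA, was at 561, 486 and 548 against 943, 1063 and 1607 (2.27-fold), highest in library 3. Of the other cytokine and binding protein members, GAS6 (ligand of the TAM receptors, 2.21-fold), JAG1 (a NOTCH ligand, 2.08-fold), UCN2 (a CRH family peptide, 2.12-fold) and SCG5 (a chaperone of prohormone convertase 2, 3.28-fold) lay between 2.08 and 3.28. JAG1 was the most even of all members, at 280.3, 279 and 277 in the sh-KLF5 libraries.

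The 17 receptors and adhesion proteins were led by CLDN1, a claudin of tight junctions, at 580.1, 422 and 403 against 3308, 2075 and 2461 (5.58-fold, means 468 ± 97.2 and 2614 ± 631, SD, n = 3). CLDN1 was highest in sh-KLF5 library 1. It was the only member in a list of 21 tested genes of epithelial differentiation and junctions, of which none of the other 20 rose and PKP2, OCLN and MUC1 fell (log2 fold change -1.75, limma adjusted p = 7.78e-07 for PKP2, with a median of -0.28 over the 20). TSPAN5, a tetraspanin, stood at 109.9, 114 and 104 against 434, 375 and 359 (3.56-fold). NRP1, a co-receptor of VEGF and class 3 semaphorins, was at 1453, 1565 and 1664 against 3039, 3031 and 3412 (2.03-fold) and TNFRSF21, a death receptor of the TNF family, at 413, 369 and 423 against 1206, 1121 and 1308 (3.02-fold). NRP1 and TNFRSF21 varied little within the groups and were both highest in library 3. AMIGO2, an adhesion protein of the immunoglobulin superfamily, stood at 1145, 1027 and 919 against 3336, 1979 and 1878 (2.33-fold), far higher in library 1 than in the other two. The phosphatase PTPRE, the orphan receptor GPRC5C, the kinase-like STYK1, the protocadherin FAT4 and DISP2, of the family that releases hedgehog ligands, lay between 2.26 and 2.45.

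Protease-activated receptor 1, F2R, through which thrombin acts on cells, stood at 246, 261 and 198 against 992, 661 and 627 (3.23-fold). Protease-activated receptor 2, F2RL1, was at 325, 380.3 and 387 against 1125, 777 and 624 (2.31-fold). Both were highest in sh-KLF5 library 1 and lowest in library 3. S1PR3, a receptor of sphingosine-1-phosphate, stood at 661, 638 and 692 against 2115, 1593 and 1767 (2.75-fold) and LPAR1, a receptor of lysophosphatidic acid, at 102, 55.2 and 87.01 against 242, 160.1 and 205 (2.48-fold). HTR7, a serotonin receptor that raises cAMP, was low in sh-NC at 40.04, 40.4 and 67.9 and stood at 144, 150.4 and 112 in sh-KLF5 (2.74-fold). In these receptors too, library 1 or 2 held the highest value. Of 21 tested genes in the list of GPCR signalling, F2R, F2RL1 and LPAR1 are members. Of the other 18, the bradykinin receptors BDKRB1 (mean 10.1 against 56.2, log2 fold change 2.41, limma adjusted p = 0.000155) and BDKRB2 (4.24 against 35.7, log2 fold change 2.86, limma adjusted p = 0.000572) rose, and RGS16 and EDNRB fell. Their median log2 fold change was 0.42. P2RX5 (2.23-fold), an ATP-gated channel, is uncertain because 38.5% of its 50-base stretches lie in the readthrough gene P2RX5-TAX1BP3, which was at means of 18.4 and 13.96. CNTNAP3 (2.01-fold), a contactin-associated protein, shares 48.0% with CNTNAP3B, which was at means of 5.23 and 0.334.

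Of the 12 matrix and pericellular members, PTX3, a secreted pattern recognition protein of the pentraxin family, stood at 182, 149.8 and 161 against 774, 681 and 583 (4.14-fold). CEMIP, which takes part in the degradation of hyaluronan, was at 302, 334 and 269.5 against 1153, 1586 and 793 (3.90-fold). Groups were far apart for both, but CEMIP ranged from 793 to 1586 among the sh-KLF5 libraries. SPOCK1, a testican proteoglycan, stood at 848, 839.5 and 903 against 2597, 2068 and 2101 (2.61-fold) and ANTXR2, a matrix-binding receptor, at 236, 266 and 247 against 814, 862 and 711 (3.18-fold). The large matrix protein SVEP1 was at 201, 167 and 143 against 448, 464 and 558 (2.88-fold). In contrast to CEMIP, SVEP1 was highest in library 3. Modifiers of the matrix were closer to the threshold, namely P3H2 (a prolyl hydroxylase of collagen, 2.31-fold), SULF2 (a sulfatase of heparan sulfate, 2.42-fold) and DSEL (of dermatan sulfate synthesis, 2.001-fold). SULF2 had the widest spread of all members, at 161, 220.3 and 94.2 in sh-KLF5 against 77.3, 66.02 and 53.1 in sh-NC. The secreted proteins NPTX1 (2.58-fold), CRISPLD2 (2.22-fold) and TINAGL1 (2.09-fold) and the secretory pathway kinase FAM20C (2.46-fold) complete the group. SPOCK1 is the only member among 26 tested extracellular matrix glycoproteins. Of the other 25, LAMA4 rose (log2 fold change 1.91, limma adjusted p = 0.0011) and 7 fell, with POSTN (log2 fold change -6.12, limma adjusted p = 2.74e-09) and SPARC (log2 fold change -5.79, limma adjusted p = 1.02e-06) first, and their median was -0.31.

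The 10 members of innate immune sensing and signalling include a receptor, its signalling proteins and effectors. TLR4, the receptor of bacterial lipopolysaccharide, stood at 218, 206 and 189.9 against 972, 686 and 546 (3.59-fold). IRAK2, a kinase of the same pathway, was at 135, 121 and 147 against 306, 326 and 234 (2.14-fold), and TNFAIP3, the deubiquitinase A20 that limits NF-kB signalling, at 534, 499.6 and 537 against 1025, 1277 and 864 (2.02-fold). All 3 were lowest in sh-KLF5 library 3. CASP1, the inflammasome protease that matures IL-1 beta, stood at 141, 119 and 118 against 441, 419 and 323 (3.13-fold). IFNGR1, a chain of the interferon gamma receptor, was at 477, 499.6 and 489 against 1259.8, 967 and 1039.8 (2.23-fold). The guanylate-binding proteins GBP1 and GBP2, both interferon gamma induced GTPases, stood at 2.21-fold and 2.86-fold. Their neighbour GBP3, no member, had means of 474 and 751 and passed on adjusted p alone (log2 fold change 0.64, limma adjusted p = 0.00996). SLFN5 (3.25-fold) and TRIM22 (3.08-fold), both known as interferon-stimulated genes, were also lowest in library 3, as was the kinase RIPK4 (2.25-fold), TRIM22 with 149.8, 121 and 66.2 against 47.5, 35.5 and 26.5. Of the 10 members, 9 were lowest in that library. The list of 25 tested interferon-stimulated genes (without IFI names) holds no member, as GBP1, GBP2, SLFN5 and TRIM22 are not in it. It was chosen with earlier results known and does not stand for all such genes. Of the 25, none rose and OAS1 (log2 fold change -2.24, limma adjusted p = 8.36e-07), XAF1, MX2, MX1 and USP18 fell, with a median of -0.30. The list of NF-kB response genes had 18 tested genes with PTGS2 and TNFAIP3 as members, and of the other 16, CCL2 (mean 8.48 against 61.8, log2 fold change 2.74, limma adjusted p = 8.56e-05) and TNFRSF9 (log2 fold change 1.15, limma adjusted p = 0.00756) rose and none fell (median 0.25).

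Prostaglandins are made from arachidonic acid, which phospholipases A2 release from membranes and cyclooxygenases convert. PTGS2, the inducible cyclooxygenase, stood at 1206, 1453 and 1526 against 4944, 4015 and 2806 (2.81-fold). PLA2G4A, the cytosolic phospholipase A2 alpha, was at 113, 115 and 102 against 258, 223 and 206 (2.08-fold), and its relative PLA2G4C at 60.5, 66.02 and 46.7 against 171, 152 and 114 (2.53-fold). All 3 were highest in sh-KLF5 library 1 and lowest in library 3, where PTGS2 was 1.84 times its highest control value. These are the only members among 12 tested prostaglandin and leukotriene genes, of which none of the other 9 rose or fell (median 0.06). PTGS1, the constitutive cyclooxygenase, was near 22.03 in sh-NC and 11.3 in sh-KLF5 on average. Other lipid enzymes and regulators among the 9 members of this role were LIPH, a phosphatidic acid phospholipase (2.49-fold), GPCPD1, a glycerophosphodiesterase (2.45-fold), ELOVL2, an elongase of polyunsaturated fatty acids (2.27-fold), MFSD2A, a lysophospholipid transporter (2.16-fold), G0S2, an inhibitor of triglyceride lipolysis (2.07-fold), and ABHD17C, a depalmitoylase (2.54-fold).

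Among 14 transcription regulators were proteins of the AP-1 and C/EBP families. JUN stood at 411, 317 and 432 against 946, 1035 and 1048 (2.61-fold) and FOSL1, which pairs with JUN proteins in AP-1, at 331, 283 and 390.5 against 552, 874 and 729 (2.15-fold). EGR1, an immediate early zinc-finger factor, was at 565, 454 and 515 against 1112, 1351 and 1643 (2.68-fold). FOSL1 was lowest in sh-KLF5 library 1 and highest in library 2, whereas EGR1 was lowest in library 1 and highest in library 3. CEBPB, at 1362, 1358 and 1717 against 2796, 3525 and 3172 (2.14-fold), had the highest level per kb of these factors. The other AP-1 genes were not members: mean values were 89.2 and 116 for FOS, 37.3 and 68.6 for FOSB, 2686 and 2986 for FOSL2, 1348 and 1405 for JUNB and 992 and 1558 for JUND. Of these, FOSB (log2 fold change 0.83, limma adjusted p = 0.0494) and JUND (log2 fold change 0.64, limma adjusted p = 0.0083) passed on p alone, as did the KLF5 relatives KLF4 (0.54, limma adjusted p = 0.0164) and KLF6 (0.39, limma adjusted p = 0.0478), all below the fold threshold.

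SOX9, a factor of chondrocyte and progenitor cells, stood at 96.8, 79.8 and 108 against 252, 315 and 228 (2.79-fold) and RUNX2, the main osteoblast factor, at 266, 234 and 189 against 640.1, 605 and 563 (2.63-fold). VDR, the vitamin D receptor, was at 250.5, 223 and 230.3 against 575, 739 and 476 (2.55-fold). SOX9 and VDR were highest in sh-KLF5 library 2. HLX had the largest ratio of the regulators (3.30) from a low control level of 27.9, 36.5 and 56.2, and PRDM8 and ARNT2 stood at 3.08 and 2.97. Smaller ratios were seen for TOX2, LYL1 and CITED4 (2.28, 2.13 and 2.42). Only 1 of the 14 regulators was highest in library 1, against 67 of all 141 members. The deposited table marks 13 members (9.22%) with a transcription factor family, against 564 (5.94%) of the genes that could have been chosen, as a description without a test.

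The growth arrest and stress group had 11 members. CDKN1A, the cyclin-dependent kinase inhibitor p21, had the highest level of all members, at 1759, 1321 and 1532 against 6529, 5829 and 4022 (3.55-fold, means 1537 ± 219 and 5459.8 ± 1294, SD, n = 3). BTG2, an antiproliferative protein, stood at 189, 143 and 135 against 503, 422 and 371 (2.78-fold). GADD45A, a stress sensor, was at 327, 249 and 285 against 638, 719.96 and 615 (2.29-fold). Control and silenced libraries were well apart for all 3, with gaps of 2.29, 1.96 and 1.88 times. BBC3, which encodes the pro-apoptotic PUMA, stood at 86.6, 59.1 and 92.3 against 181, 279 and 177 (2.68-fold) and SESN1, a sestrin that restrains mTORC1, at 179, 174 and 180.4 against 457, 365 and 286 (2.08-fold).

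CCNG2, an atypical cyclin linked with arrest, was at 291, 307 and 335 against 925, 631 and 471 (2.17-fold). With CDKN1A, BTG2 and GAS6 it makes 4 members of 21 tested cell cycle inhibitors and quiescence genes, of which none of the other 17 rose and CCND2 (log2 fold change -5.42, limma adjusted p = 7.28e-09), CCNG1 (log2 fold change -4.44, limma adjusted p = 0.00111) and CDKN1C (log2 fold change -2.09, limma adjusted p = 2.92e-07) fell (median -0.11). CCNG1, a cyclin related to CCNG2, stood at 287, 167 and 177 against 19.4, 1.94 and 13.03. TENT5C, a cytoplasmic poly(A) polymerase, had the third largest ratio of all, at 54.00, 42.4 and 44.6 against 309.8, 281 and 150.4 (5.26-fold), with sh-KLF5 library 3 well below the other two. HSPB8, a small heat shock protein, was more even at 66.1, 73.9 and 63.7 against 224, 213 and 209.6 (3.18-fold). PHLDA1 (2.91-fold), RPS27L (2.19-fold) and the translesion polymerase POLI (2.17-fold) complete the group. Of these 11 members, 10 were lowest in library 3 and 9 highest in library 1.

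Most of the 13 actin and cytoskeleton members showed another order. MYLK, the kinase of smooth muscle myosin light chain, stood at 651, 649 and 633 against 1679, 1663 and 1649 (2.58-fold), with hardly any spread in either group. TPM1, a tropomyosin, was at 493, 488 and 436 against 1033, 923 and 1189 (2.22-fold), and MICAL2, an oxidase of actin, at 1035, 899.6 and 864 against 1852, 2133 and 2213 (2.21-fold). The LIM domain proteins FHL2, LIMA1, PDLIM4 and ABLIM3 stood at ratios of 2.22, 2.02, 2.05 and 2.37. Of this group, 8 of 13 were highest in sh-KLF5 library 3, against 35 of 141 members and 32.2% of the 9495 genes that could have been chosen. The roles were set after the members were known, and this order was not tested. NAV3, a microtubule plus-end protein, had the largest ratio of the group (112, 128 and 82.8 against 281, 311 and 374, 2.997-fold), followed by IQGAP2 and ENC1 at 2.76 and 2.74, while the formin FHOD3, the actin-binding NEXN and DYSF, a protein of membrane repair, were at 2.40, 2.07 and 2.35.

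The 11 signalling adaptors, kinases and GTPase regulators were closest to the threshold, from IRS1 at 2.01 to GAREM1, an adaptor of the EGF receptor, at 2.75. SPRED1, which restrains RAS signalling, was the most abundant of them at 1609, 1477 and 1478 against 3933, 3049.7 and 2594 (2.10-fold). GRB7, an adaptor whose gene lies beside ERBB2, stood at 128, 120.2 and 119.9 against 312, 369.7 and 182 (2.35-fold), lower in library 3 than in the other two. The RAS-related RASD1 (2.60-fold), the guanylate cyclase subunit GUCY1A2 (2.43-fold), the GTPase-activating ARHGAP20 (2.15-fold), PID1 (2.11-fold), NXN (2.10-fold) and REPS2 (2.02-fold) lay between. NUAK2, a kinase of the AMPK family, and IGFBP3 are the 2 members among 22 tested Hippo target genes, of which none of the other 20 rose or fell (median 0.22).

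Of 10 metabolic enzymes, DHRS3, which reduces retinaldehyde, stood at 38.2, 43.4 and 46.7 against 170.2, 184 and 138 (3.84-fold). AKR1C1, an aldo-keto reductase of steroids, was at 94.04, 103 and 104 against 456, 388 and 308 (3.82-fold). Its copies differ in level: AKR1C2 was at means of 83.9 and 146 and AKR1C3 at 1663 and 1656, and 28.3% of the 50-base stretches of AKR1C1 occur in AKR1C2. AKR1C1 is the only member of 23 tested NRF2 target genes, and none of the other 22 rose or fell (median 0.19). The lysosomal fucosidase FUCA1 was at 497, 489.7 and 542 against 1653, 1593 and 872 (2.69-fold), and PFKFB4, a regulator of glycolysis, at 261, 211 and 201 against 519, 539 and 329 (2.06-fold). Both were lower in sh-KLF5 library 3 than in libraries 1 and 2. PFKFB4 and STC2 are among the 3 members of 23 tested hypoxia response genes, of which none of the other 20 rose or fell (median 0.15). DPYD, AASS, BDH1, AMPD3, LACTB and A4GALT, enzymes of pyrimidine, lysine, ketone, purine, mitochondrial and glycolipid metabolism, stood at ratios of 2.02 to 2.36.

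Of the 4 transporters and traffic proteins, the potassium channel regulator ABCC9 stood at 121, 113 and 67.9 against 307, 248 and 400.1 (3.16-fold) and SYTL2, which takes part in vesicle docking, at 161, 134 and 111 against 474, 369.7 and 489 (3.28-fold). ABCG2, an efflux transporter of drugs, was at 93.1, 59.1 and 61.5 against 158, 130.02 and 157 (2.08-fold), with a gap of 1.40 times between the groups, and BET1, a SNARE of the Golgi, was at 2.06-fold. Of the 7 members placed in no role, SMN1 stood at 233, 248 and 255 against 419, 745 and 942 (2.86-fold), and 86.5% of its 50-base stretches occur in SMN2, which was at means of 185 and 229, so that the reads of these copies can hardly be told apart. GCOM1 (3.83-fold) lies in a readthrough locus, and 27.4% of its 50-base stretches occur in other genes. It shares 15.6% with MYZAP, which was at means of 12.04 and 29.99, and its exons overlap on the same strand, over 13.5% of their bases, those of POLR2M, which was far more abundant (means 802 and 906). GLIPR1, a secreted CAP domain protein, stood at 95.9, 96.6 and 90.2 against 354, 277 and 419 (3.71-fold), and 24.2% of its exon bases are overlapped on the opposite strand by KRR1, which was at means of 1183 and 1387. The ubiquitin ligase MARCH3, MMD, SMIM29 and ANKRD29 stood at 2.44, 2.21, 2.49 and 2.17.

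**Figure D3:**
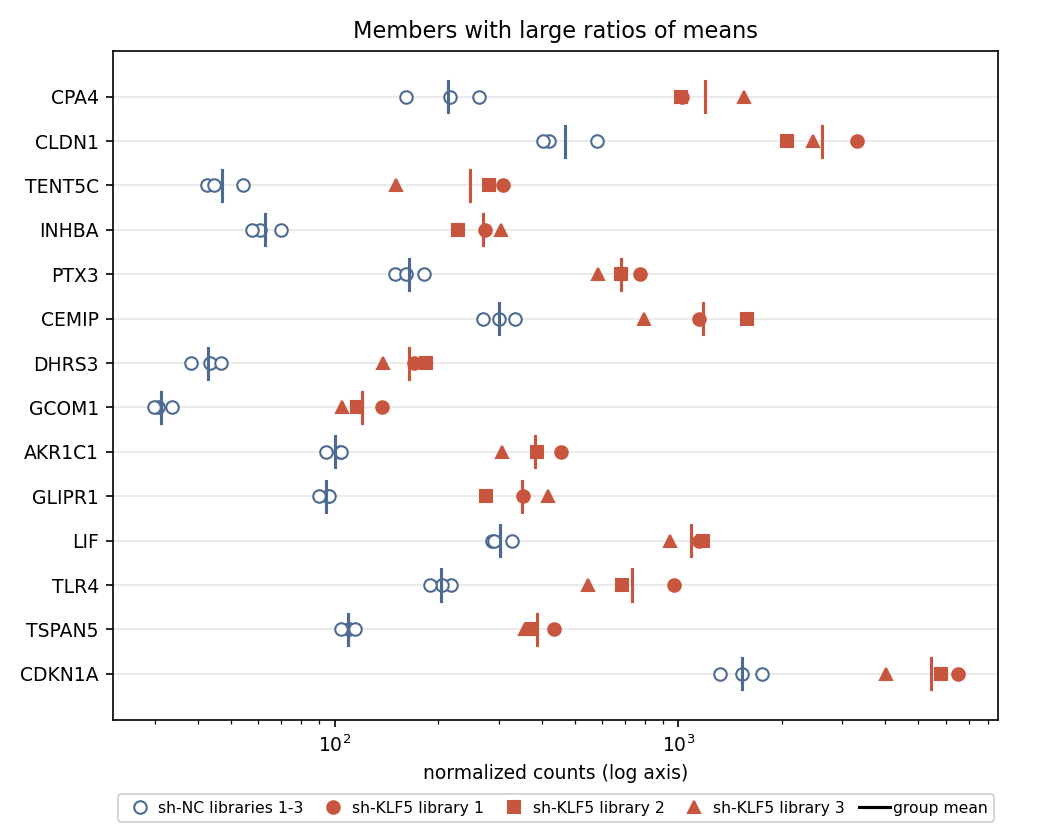
Normalized counts (horizontal log axis) in each library of 14 members with large ratios of means, all above 3.5, with open circles for the 3 sh-NC libraries, filled circles, squares and triangles for sh-KLF5 libraries 1, 2 and 3, and bars for the group means. CPA4 (5.62-fold) and CLDN1 (5.58-fold) are at the top, and the triangle of library 3 is the lowest sh-KLF5 point for TENT5C, CEMIP, TLR4 and CDKN1A but the highest for CPA4, INHBA and GLIPR1.

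Across all members, the sh-KLF5 libraries were not alike. Library 1 held the highest sh-KLF5 value in 67 members (47.5%), similar to its share over all 9495 genes (43.9%), but library 3 held the lowest in 83 members (58.9%), against 26.3% over all. The median member lay 0.09 above its own mean over the sh-KLF5 libraries in library 1 and 0.16 below it in library 3 on the log2 scale, where the medians over all genes were 0.02 and 0.00. KLF5 itself was higher in library 1 (1745) than in libraries 2 and 3. The highest sh-KLF5 value was 1.01 (JAG1) to 2.34 (SULF2) times the lowest, and 9 members exceeded 2 (SULF2, TRIM22, SMN1, GPCPD1, TENT5C, CCL3, GBP2, GRB7 and CEMIP). Applying the rule without sh-KLF5 library 1 gave 128 genes, 118 of them members, and without sh-KLF5 library 3 it gave 169 genes, 132 of them members.

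**Figure D4:**
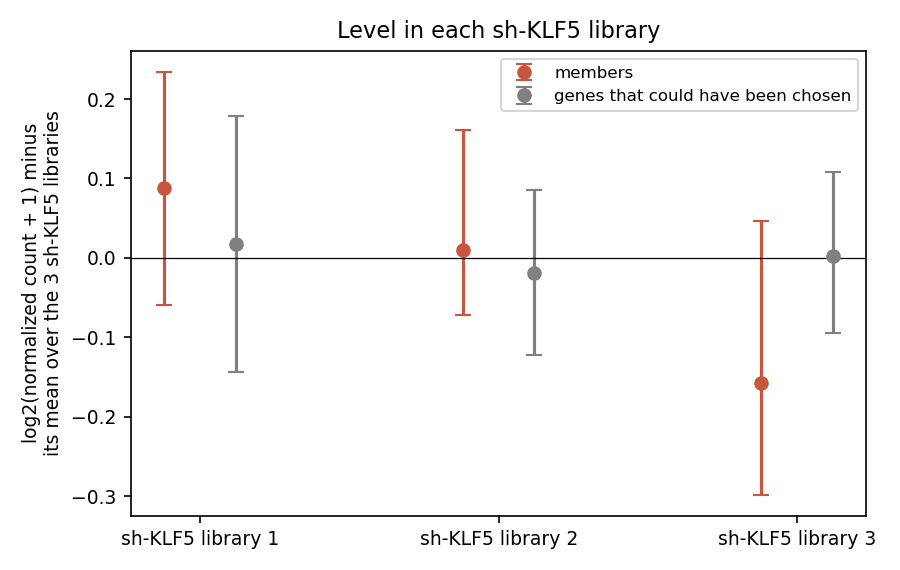
For each sh-KLF5 library (horizontal axis), points give the median over the 141 members (red) and the 9495 genes that could have been chosen (grey) of log2(normalized count + 1) minus the mean of that gene over the 3 sh-KLF5 libraries, and bars span the 25th to 75th percentile. Members lie above 0 in library 1 (0.09) and below it in library 3 (-0.16), whereas all candidates are near 0.

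Members were also described by position, which the rule did not use. Of the 141 members, 38 (27.0%) had another member within 1 Mb, against 1103 (11.8%) of the 9354 other genes that could have been chosen. Those other genes near a member had a median log2 ratio of 0.04, against 0.02 for genes farther away, and 3.72% against 3.30% of them were at 1.5-fold or more. The 38 members formed 17 neighbourhoods, 4 of them with 3 members. They include neighbouring copies that share sequence, such as SERPINB3 and SERPINB4, and CCL3 and CCL3L1. The 27.0% is therefore not a share of independent genes. On chromosome 15, TPM1, LACTB and RPS27L followed each other with no other coding gene of the deposited table between them, at ratios of 2.22, 2.02 and 2.19. Also on chromosome 15, ARNT2, ABHD17C and CEMIP stood at 2.97, 2.54 and 3.90, beside MESD at 1.07. On chromosome 5, IQGAP2, F2R and F2RL1 stood at 2.76, 3.23 and 2.31. On chromosome 17, SLFN5, CCL3 and CCL3L1 were separated by 15 other coding genes of the table. The pairs GBP1 and GBP2, PTGS2 and PLA2G4A, SERPINB4 and SERPINB3, P3H2 and CLDN1, ANTXR2 and PRDM8, IFNGR1 and TNFAIP3, and PFKFB4 and UCN2 had no coding gene of the table between them, and genes without a row there were not counted. PFKFB4 and UCN2 overlap on the same strand over 19.5% of the exon bases of UCN2, so that their reads are not independent. Neighbours could also differ: between BACE2 and RIPK4 on chromosome 21 lie MX2 and MX1, which were lower in sh-KLF5 (log2 fold change -1.16 with limma adjusted p = 0.000325, and -1.10 with limma adjusted p = 0.00224).

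**Figure D5:**
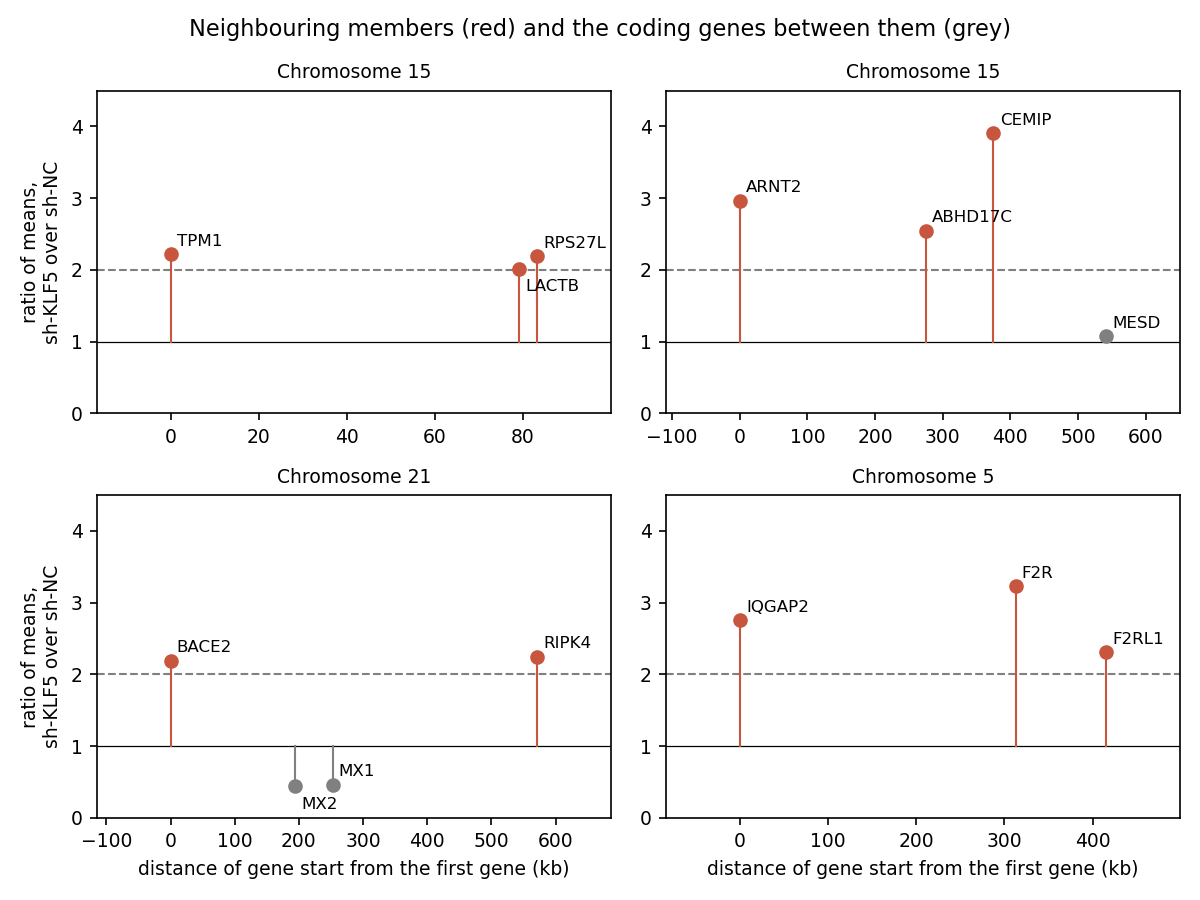
Ratio of means (vertical axis, sh-KLF5 over sh-NC) of neighbouring members (red) and of the coding genes between or beside them with a mean of 10 or more in either group (grey), against the distance of each gene start from that of the first gene in kb (horizontal axis). Solid lines mark a ratio of 1 and dashed lines the threshold of 2, and members stand at 2.02 to 3.90 while MESD is at 1.07 and MX2 and MX1 are at 0.447 and 0.461.

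By chromosome, members were most frequent on chromosome 18 (7 of 140 candidates, 5.0%), chromosome 15 (10 of 317, 3.15%) and chromosome 5 (12 of 438, 2.74%), against 1.48% over all 9495. There was none among 325 candidates on chromosome 8. These counts are small and were not tested, and those of chromosome 18 include SERPINB3 and SERPINB4, which share sequence. Exons of 40 members overlap those of another gene, 34 of them on the opposite strand and 7 on the same strand. With each partner gene taken singly, 3 members have more than 20% of their exon bases in an overlap (P2RX5, GLIPR1 and CCL3L1). GCOM1 is not among them, but it overlaps MYZAP over 16.2% and POLR2M over 13.5% of its exon bases, both on the same strand. Whether reads were counted by strand is not given in the sources used here, so that reads from the overlapped bases of GLIPR1 and CCL3L1, which are a minor part of their exon bases, could come from the partner on the opposite strand. P2RX5 overlaps its partner on the same strand over 41.6% of its exon bases. By sequence, 109 of the 141 members have less than 1% of their 50-base stretches in transcripts of another gene, and 7 have more than 20% (SMN1, CNTNAP3, P2RX5, AKR1C1, GCOM1, SERPINB3 and SERPINB4).

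Over the 33 gene lists, 570 genes were tested, of which 35 were members. Of the other 535, 17 rose (3.18%) and 52 fell (9.72%). Over all tested genes the shares were 1.9% and 3.37%, but the 1.9% includes 134 members, so the upward shares are not of like sets. The lists were also chosen with earlier results of these data known, so no excess of listed genes can be read from these shares. Of 30 lists that are not cell markers, 18 held a member. Among the lists not described above, CEBPB and STC2 are the members of 24 tested ATF4 target genes, where ALDH1L2 fell (log2 fold change -2.36, limma adjusted p = 0.00194) and none rose. CCNG2, IGFBP3 and IRS1 are the members of 20 tested FOXO and insulin-responsive genes, where SESN3 fell (log2 fold change -2.36, limma adjusted p = 0.000482) and none rose. CRISPLD2, at 211, 141 and 160.2 against 359.8, 342 and 437, is 1 of the 2 members of 14 tested glucocorticoid response genes, with no other rise or fall. PTX3 is the member of 16 tested complement and acute phase genes, where SERPING1 (log2 fold change -3.52, limma adjusted p = 0.000819) was among the genes that fell and none rose. NRP1 is the member of 15 tested axon guidance genes, where UNC5B fell (log2 fold change -1.33, limma adjusted p = 0.0277).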

How the data were processed

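Poly(A) RNA was sequenced from 3 sh-NC and 3 sh-KLF5 libraries of SKOV3 cells. The submitters' processing notes name HISAT2 2.0.5, featureCounts 1.5.0-p3 and DESeq2 1.20.0. The authors deposited 1 table with a normalized signal per gene and library (reads on a gene over 1 factor per library). Group means and the authors' own comparison columns in that deposited table, log2 fold changes and p-values, were not used.

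Dividing each library by its value of 1 read gave whole numbers (within 0.001) for 100% of values, that is 15852319 to 17543896 reads per library. Counting precision follows from these reads. Replicates of a group differed by more than sampling noise.

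Members were found by the rule in the report and were not tested. The members, gene lists and roles were chosen with earlier results of these data known. Other genes were compared with limma 3.58.1 (R 4.3.3, trend and robust) on log2(normalized count + 1), a scale that understates changes of low genes, over 15803 genes passing the filter of edgeR 4.0.16 (filterByExpr, minimum count 10). The Benjamini-Hochberg adjusted p threshold was 0.05 with a log2 fold change beyond 1 in either direction. The script was tested on simulated data. Alternatives were edgeR's quasi-likelihood test and DESeq2 1.42.0 on recovered reads, other scalings, filters, pseudocounts and thresholds, a replicate block, and leaving out each library.

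Genes were named by rule: the 15 largest ratios, the 15 highest levels, the 10 highest levels per kb, listed members, threshold neighbours, copies and overlapping genes, and up to 4 other listed genes in each direction. Some items under the rule are not reported here. Other members were named with their role after their values were seen. Coordinates of 29180 genes match GENCODE release 29 (GRCh38), used for exons and for 50-base stretches. Promoters are from RefSeq (GRCh38.p14). The other cell lines and experiments of the study were not analysed here. Python 3.11.15 with matplotlib 3.10.9 drew the figures.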

Additional observations from a re-analysis of the deposited data

How the results depend on the processing

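The set of 141 genes depended mostly on its fold threshold, with 425 genes at 1.5-fold and 32 at 3-fold. Other settings of the rule gave 109 to 191 genes, with a higher and a lower threshold for the mean. Leaving out 1 library gave 128 to 169 genes, with 23 members lost without sh-KLF5 library 1, and 96 members were kept in every such set and under both other scalings. These scalings moved the median of all genes by 0.01 or less on the log2 scale. Listed genes outside the set numbered 17 higher and 52 lower, and 9 and 33 when every library had to hold at least 10 reads, a filter that removes genes absent from one group. Without 1 library, 12 to 26 were higher and 48 to 58 lower, with 26 higher without sh-KLF5 library 3, and the cause was not tested. The change of KLF5 stayed between -1.62 and -1.48 without 1 library and passed in each case (limma). Same-numbered libraries did not deviate together (correlations of 0.06, 0.03 and 0.05). With the number as a replicate block, 18 listed genes were higher and 54 lower, and KLF5 was at -1.53. Precision is limited by 3 libraries a group and, for genes near 100 normalized counts, by reads.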

Other observations

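Besides the coding genes, 10 genes of other types met the thresholds of fold, mean and separation. LINC02154, a long noncoding RNA, stood at 9.31, 32.5 and 19.1 in sh-NC and at 117, 109.6 and 128 in sh-KLF5. PURPL, also a long noncoding RNA, stood at 71.7, 111 and 38.2 against 371, 337 and 299. AC117402.1 stood at 74.5, 69.0 and 63.7 against 313, 276 and 307. MIR100HG, the host gene of a microRNA cluster, was at 137, 129 and 122 against 474, 346 and 400.1. LUCAT1, which the annotation lists as antisense, was at 41.0, 55.2 and 53.1 against 130.5, 151 and 114. In all 5 the lowest sh-KLF5 library lay above the highest sh-NC library, as the thresholds require. AC005476.2, AF127577.4, LINC01443 and the pseudogenes FTH1P7 and AADACP1 completed the 10. FTH1P7 is a processed copy of a ferritin gene, so its reads could have come from the parent gene.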
